A study of Mus musculus with 9 samples.

Results

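NFE2L1, NFE2L2 and 8 antioxidant genes were followed in mouse embryoid body cells with and without enforced expression of nuclear respiratory factor 1 (NRF1). The 10 genes, Nfe2l1, Nfe2l2, Hmox1, Nqo1, Gclc, Gclm, Txnrd1, Srxn1, Sod1 and Sod2, were taken by their gene symbols from the 56691 genes of the RNA-seq count tables, and each symbol named exactly 1 gene. All 10 genes were counted in all 9 libraries, with 698 to 11841 reads per gene and library, and all 10 passed the filter on low counts. Of these, Gclc was lower under NRF1 OE in both cell populations, and the level of Hmox1 differed between the populations under NRF1 OE. The other 8 genes passed no test of the edgeR fit with TMM scaling, although Sod2, Gclm and Nfe2l2 passed under other settings.

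The cells came from BVSC PSCs, a mouse pluripotent stem cell line in which mVenus reports Blimp1 (BV) and CFP reports Stella, and were differentiated as embryoid bodies (EBs). PSCs carried the doxycycline (DOX)-inducible p20 lentiviral vector with Nrf1 cDNA (NRF1 OE) or without an insert (Ctrl), and the EB protocol gave DOX at 1.5 μg/mL from day 2 to day 5. The day 5 cells were sorted into BV+ cells, labelled as primordial germ cell-like cells (PGCLCs), and BV- cells, labelled as somatic. The groups were BV+ NRF1 OE (n = 2), BV+ Ctrl (n = 2), BV- NRF1 OE (n = 3) and BV- Ctrl (n = 2). The labels do not say whether the libraries of a group came from separate infections or cultures, so the p-values measure only the spread between these libraries.

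NFE2L1 and NFE2L2 belong to the cap'n'collar family of basic leucine zipper transcription factors. They pair with small MAF proteins on antioxidant response elements and switch on genes that make glutathione, reduce thioredoxin and peroxiredoxins, degrade heme and reduce quinones. NFE2L2 protein is held low by KEAP1, which brings it to the CUL3 and RBX1 ubiquitin ligase, whereas NFE2L1 is made at the endoplasmic reticulum and is also known for raising proteasome genes. Much of this control acts on protein stability and cleavage, which mRNA counts do not measure. The names collide: NFE2L1 is often called NRF1 and NFE2L2 is called NRF2, but the factor expressed from the p20 vector was nuclear respiratory factor 1, encoded by Nrf1, which has a different DNA-binding domain and is known for mitochondrial genes.

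The libraries held 13702162 to 19625460 counts. Nrf1 itself had 95.7 and 99.4 counts scaled to library size (CPM) in BV+ NRF1 OE, 91.1 and 90.4 in BV+ Ctrl, 119, 122 and 126 in BV- NRF1 OE and 99.1 and 105 in BV- Ctrl. Every NRF1 OE library was above every Ctrl library of its population, but the rise was 1.08-fold in BV+ cells (adjusted p = 0.489) and 1.20-fold in BV- cells (adjusted p = 0.0718). The BV+ label was not matched by higher germ cell markers: the summed level of 8 germ cell markers was 499 to 541 CPM in BV+ NRF1 OE, 504 to 512 in BV+ Ctrl, 653 to 712 in BV- NRF1 OE and 542 to 548 in BV- Ctrl. Prdm1, the gene of the BV reporter, differed between BV+ and BV- Ctrl cells by a log2 fold change of 0.054 (adjusted p = 1.00), so the populations are called by their reporter here. The correlation across genes between a library's deviation from the mean and transcript GC content was -0.644 to -0.565 in the 4 Ctrl libraries and -0.0249 to 0.719 in the 5 NRF1 OE libraries, so this GC trend moved with NRF1 OE. Results are therefore also given with offsets that take out how each library depends on GC content and on length.

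Promoter windows of 8 of the 10 genes were searched for letters of the antioxidant response element. Sequence outside these windows was not searched. RefSeq promoter windows, 14 in all, were used for the 8 genes other than Hmox1 and Gclc, each from 250 bases before to 50 bases after a start site, on GRCm38.p6, while the counts were made on GRCm39. The core of the element, TGACNNNGC on either strand, was found in 5 of the 14 windows and in 12.4% of all 32851 promoter windows of the mouse. The NRF1 motif GCGCANGCG and its shorter form TGCGCA, also searched on both strands and partly overlapping each other, were found in 0 of the 14 windows, against 6.25% and 7.76% of all windows. A match is a run of letters and not a bound site. The 5 windows with the core are shown, because they belong to the genes whose levels are compared below, each 5′ to 3′ on the strand of its gene and with the core in capitals:
Nfe2l2, chr2:75704614-75704913, minus strand: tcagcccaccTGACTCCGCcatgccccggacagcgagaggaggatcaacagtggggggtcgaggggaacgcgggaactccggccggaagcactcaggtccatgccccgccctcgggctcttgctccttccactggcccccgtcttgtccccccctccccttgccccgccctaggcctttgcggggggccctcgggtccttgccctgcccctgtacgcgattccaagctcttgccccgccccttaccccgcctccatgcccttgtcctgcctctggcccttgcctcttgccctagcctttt
Gclm, chr3:122245307-122245606, plus strand: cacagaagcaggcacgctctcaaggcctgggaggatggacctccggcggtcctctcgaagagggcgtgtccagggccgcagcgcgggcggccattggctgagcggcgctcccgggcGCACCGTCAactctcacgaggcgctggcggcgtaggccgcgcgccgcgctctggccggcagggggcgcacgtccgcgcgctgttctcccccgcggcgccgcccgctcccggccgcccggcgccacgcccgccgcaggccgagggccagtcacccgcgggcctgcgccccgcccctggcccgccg
Txnrd1, the second of its windows, chr10:82858956-82859255, plus strand: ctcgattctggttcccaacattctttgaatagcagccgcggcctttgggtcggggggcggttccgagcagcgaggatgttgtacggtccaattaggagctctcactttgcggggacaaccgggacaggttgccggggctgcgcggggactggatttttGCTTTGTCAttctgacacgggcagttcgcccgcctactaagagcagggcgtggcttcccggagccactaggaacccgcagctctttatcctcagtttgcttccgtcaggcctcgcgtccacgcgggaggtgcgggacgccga
Srxn1, chr2:152105274-152105573, plus strand: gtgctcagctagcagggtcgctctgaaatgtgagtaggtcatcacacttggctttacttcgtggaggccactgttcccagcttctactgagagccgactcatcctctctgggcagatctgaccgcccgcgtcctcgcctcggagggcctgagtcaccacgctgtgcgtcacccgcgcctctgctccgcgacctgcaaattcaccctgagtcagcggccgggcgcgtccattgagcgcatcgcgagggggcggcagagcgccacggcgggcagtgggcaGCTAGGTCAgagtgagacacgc
Sod1, chr16:90220512-90220811, plus strand: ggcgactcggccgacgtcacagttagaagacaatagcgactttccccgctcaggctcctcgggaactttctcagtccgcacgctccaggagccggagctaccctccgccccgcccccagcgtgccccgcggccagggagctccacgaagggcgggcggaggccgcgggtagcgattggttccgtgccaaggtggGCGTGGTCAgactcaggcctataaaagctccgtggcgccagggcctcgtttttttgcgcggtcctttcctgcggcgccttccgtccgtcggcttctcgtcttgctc
The core lay before the start site in 4 of these windows, beginning at base 11 of the Nfe2l2 window, base 117 of Gclm, base 159 of Txnrd1 and base 195 of Sod1. In Srxn1 it began at base 279, after the start site.

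Per length of transcript, on the FPKM scale that the authors computed, Txnrd1 had the highest mean of the 10 genes over the 9 libraries and Sod2 the lowest. Txnrd1, which reduces thioredoxin, had 73.4 to 89.5 FPKM, Sod1, the cytosolic superoxide dismutase, had 62.9 to 94.8 FPKM, and Hmox1, the heme oxygenase induced by stress, had 53.5 to 89.2 FPKM. These ranges overlapped, so the order of the top genes was not clear. Nfe2l1 (43.8 to 50.5 FPKM) and the quinone reductase Nqo1 (36.7 to 50.2 FPKM) overlapped with each other and lay below Hmox1. Next came Gclm (22.1 to 31.0 FPKM) and Gclc (18.6 to 35.6 FPKM), the subunits of the enzyme that starts glutathione synthesis, and Nfe2l2 (18.8 to 28.2 FPKM), with overlapping ranges. Srxn1, which repairs over-oxidised peroxiredoxins, had 15.4 to 20.5 FPKM and overlapped with Nfe2l2. Sod2, the mitochondrial superoxide dismutase, had 11.2 to 13.5 FPKM, below all others. FPKM depend on the length counted for a gene, which the deposited values put at 3970 bases for Sod1 and 10008 bases for Sod2, so this order holds only for those lengths. The level of a gene varied little over the 9 libraries: the highest library was 1.17-fold above the lowest for Nfe2l1, 1.20-fold for Txnrd1, 1.72-fold for Hmox1 and 1.87-fold for Gclc, which varied most.

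**Figure D1:**
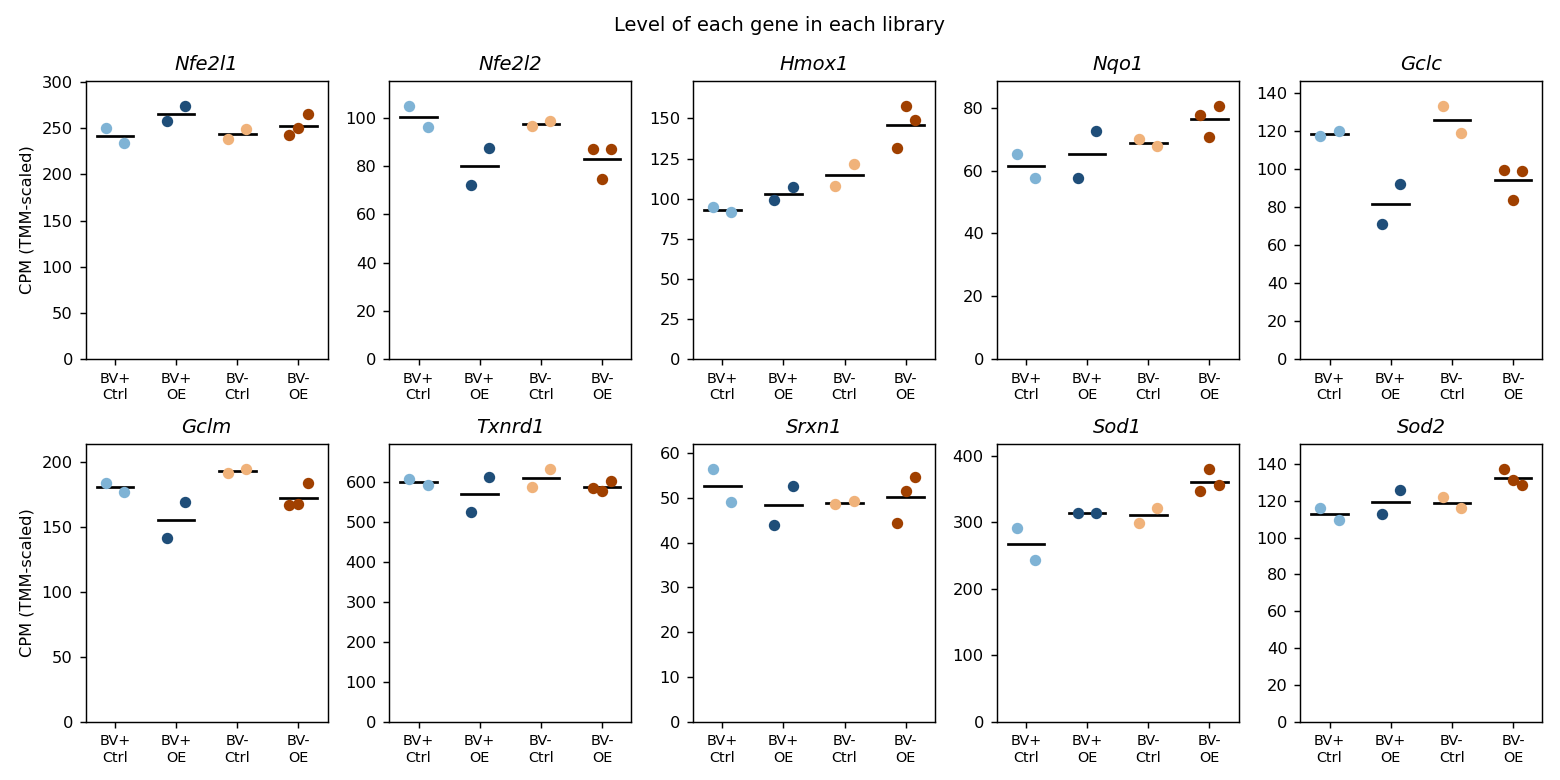
Level of each of the 10 genes in CPM (vertical axis, from 0, with TMM scaling) in the libraries of the 4 groups (points) with the group means (lines). The NRF1 OE libraries of Gclc lie below the Ctrl libraries in both populations, at 70.9 to 99.1 CPM against 117 to 133 CPM, and Hmox1 is highest in BV- NRF1 OE, at 131 to 158 CPM.

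To ask whether NRF1 OE changed these genes, it was compared with Ctrl within each population. In BV+ cells, Gclc was lower and no gene was higher at an adjusted p under 0.05, so 1 of the 10 genes changed, against 8.02% of the 16903 genes tested (6.24% higher and 1.78% lower). In BV- cells, Gclc was again the 1 gene of 10 that changed, against 17.2% of all genes tested (10.2% higher and 6.98% lower). The study's own threshold, a log2 fold change beyond 0.58 in either direction at p under 0.05 before adjustment, was passed by 0 of the 10 genes in either population, against 17.0% of all genes in BV+ cells and 16.0% in BV- cells. At an unadjusted p under 0.05 alone, 2 genes passed in BV+ cells (Gclc and Nfe2l2), beside 32.5% of all genes, and 2 in BV- cells (Gclc and Hmox1), beside 39.1%. DESeq2 called 1 gene in BV+ cells (Gclc), beside 12.5% of all genes, and 2 in BV- cells (Gclc lower and Hmox1 higher), beside 23.8%. The median log2 fold change of the 10 genes was 0.0033 in BV+ and 0.044 in BV- cells, beside 0.036 and 0.0092 for all genes tested. Markers of other cells moved with NRF1 OE too. In BV+ cells 3 of 5 endothelial markers were called higher (median log2 fold change 1.49) and 1 of 8 endoderm markers was called lower, with all 8 below 0 (median -0.68). In BV- cells 4 of 8 germ cell markers were called higher (median 0.35) and 2 of 8 endoderm markers lower (median -0.13). Their part in the changes with NRF1 OE was not tested. In bulk RNA, fewer cells with a transcript and less of it per cell cannot be told apart.

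**Figure D2:**
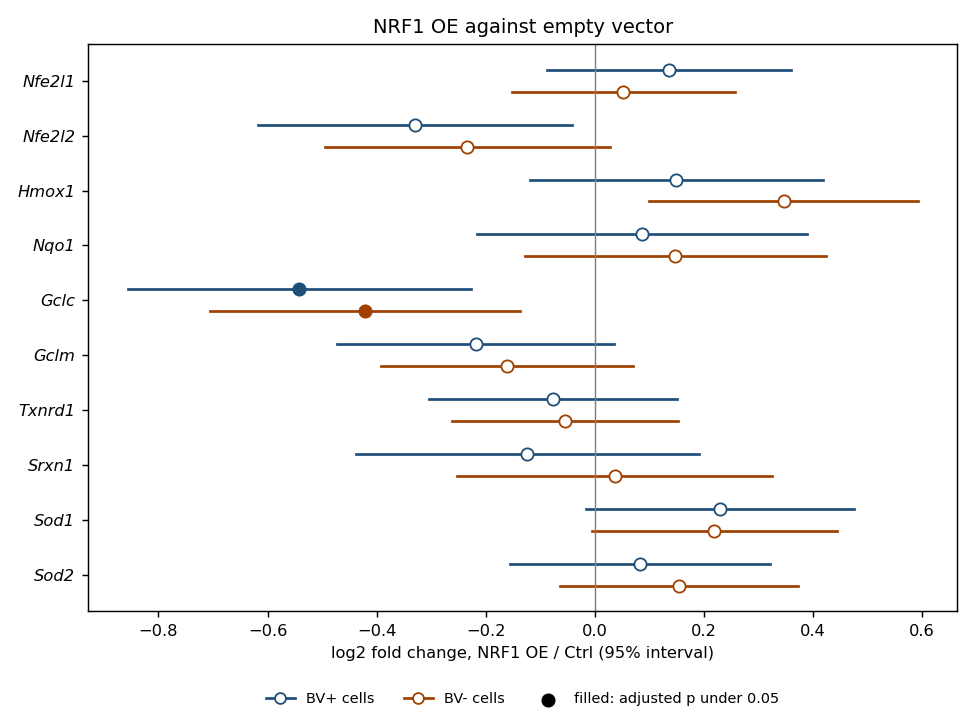
Log2 fold change of NRF1 OE over Ctrl (horizontal axis) for each of the 10 genes in BV+ and BV- cells, with 95% intervals from edgeR. Filled points mark an adjusted p under 0.05, reached by Gclc alone, at -0.54 in BV+ and -0.42 in BV- cells.

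Gclc and Gclm encode the catalytic and the modifier subunit of glutamate-cysteine ligase, the rate-limiting enzyme of glutathione synthesis. Gclc (ENSMUSG00000032350) had 70.9 and 91.7 CPM in BV+ NRF1 OE, 117 and 120 in BV+ Ctrl, 99.1, 83.8 and 98.9 in BV- NRF1 OE and 133 and 119 in BV- Ctrl. Every NRF1 OE library was below every Ctrl library, with no overlap in either population. Its level under NRF1 OE was 0.687 of Ctrl in BV+ cells (log2 fold change -0.54, 95% interval -0.86 to -0.23, adjusted p = 0.0446) and 0.747 of Ctrl in BV- cells (log2 fold change -0.42, interval -0.71 to -0.14, adjusted p = 0.0469). Both calls lay close to the threshold. The direction was the same in all 17 alternatives, with log2 fold changes of -0.74 to -0.36 in BV+ and -0.51 to -0.34 in BV- cells, but the call was lost in 7 alternatives in BV+ and in 8 in BV- cells. In BV+ cells it was lost without BV+ NRF1 OE replicate 1 (log2 fold change -0.36), BV- NRF1 OE replicate 3 (-0.56), BV+ Ctrl replicate 1 (-0.56) or 2 (-0.53) and BV- Ctrl replicate 1 (-0.54) or 2 (-0.49). In BV- cells it was lost without BV- NRF1 OE replicate 3 (-0.47), BV+ Ctrl replicate 1 (-0.42) or 2 (-0.42) and BV- Ctrl replicate 1 (-0.34) or 2 (-0.51). Leaving out a library lowers the number of libraries that inform the spread. Except without BV- NRF1 OE replicate 3 (adjusted p = 0.0617 in BV+ and 0.0742 in BV- cells), these fits left a lone library in a group. Calls over all genes tested were fewer in each of these fits. Without BV- NRF1 OE replicate 3 they were 665 of 16877 in BV+ cells and 35 in BV- cells. With the replicate block, where Gclc did not pass either, 3 of 16903 genes passed in BV+ cells and 0 in BV- cells.

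Gclm (ENSMUSG00000028124) had 141 and 169 CPM in BV+ NRF1 OE, 183 and 177 in BV+ Ctrl, 166, 167 and 184 in BV- NRF1 OE and 191 and 194 in BV- Ctrl. Its NRF1 OE libraries were also below all Ctrl libraries of the same population. The difference did not pass the test, at a log2 fold change of -0.22 in BV+ cells (95% interval -0.47 to 0.036, adjusted p = 0.208) and -0.16 in BV- cells (interval -0.39 to 0.070, adjusted p = 0.274). With offsets for GC content and length its sign turned, to 0.076 (adjusted p = 0.752) and 0.36 (adjusted p = 0.119). The exons of Gclm overlap the predicted genes Gm17494, on the other strand, and Gm6061, and whether the counting used strand is not stated in the sources used here, so its counts are less certain. No exon overlap was found for the other 9 genes.

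Nfe2l2 (ENSMUSG00000015839), the factor that KEAP1 controls, had 72.3 and 87.7 CPM in BV+ NRF1 OE, 105 and 96.3 in BV+ Ctrl, 87.2, 74.6 and 87.1 in BV- NRF1 OE and 96.5 and 98.6 in BV- Ctrl. The NRF1 OE libraries were below the Ctrl libraries in both populations. The log2 fold change was -0.33 in BV+ cells (95% interval -0.62 to -0.042, unadjusted p = 0.0282, adjusted p = 0.115) and -0.23 in BV- cells (interval -0.50 to 0.028, adjusted p = 0.168), so neither passed after adjustment. Nfe2l1 (ENSMUSG00000038615) had 258 and 274 CPM in BV+ NRF1 OE, 250 and 234 in BV+ Ctrl, 243, 250 and 266 in BV- NRF1 OE and 239 and 249 in BV- Ctrl. The groups did not overlap in BV+ cells and overlapped in BV- cells. Nfe2l1 differed by 0.14 on the log2 scale in BV+ cells (interval -0.088 to 0.36, adjusted p = 0.360) and by 0.052 in BV- cells (interval -0.15 to 0.26, adjusted p = 0.710), and the sign turned with the offsets, to -0.058 and -0.15. These intervals leave room for changes of Nfe2l1 of up to 0.36 on the log2 scale in BV+ cells.

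Hmox1 (ENSMUSG00000005413), which degrades heme, had 99.2 and 107 CPM in BV+ NRF1 OE, 94.6 and 91.4 in BV+ Ctrl, 131, 158 and 149 in BV- NRF1 OE and 108 and 122 in BV- Ctrl. Every NRF1 OE library was above every Ctrl library of its population. In BV- cells the log2 fold change was 0.35 (95% interval 0.10 to 0.59, unadjusted p = 0.0101), just short of the threshold at an adjusted p of 0.0527, and DESeq2 called it at an adjusted p of 0.0436. In BV+ cells it was 0.15 (interval -0.12 to 0.42, adjusted p = 0.401). With offsets for GC content and length the difference was -0.0036 in BV- and -0.14 in BV+ cells, so the rise was not seen under that scaling. Nqo1 (ENSMUSG00000003849), which reduces quinones, had 57.7 and 72.6 CPM in BV+ NRF1 OE, 65.2 and 57.5 in BV+ Ctrl, 77.8, 70.8 and 80.5 in BV- NRF1 OE and 70.1 and 67.8 in BV- Ctrl. Its groups overlapped in BV+ cells (log2 fold change 0.087, interval -0.22 to 0.39) and did not overlap in BV- cells (0.15, interval -0.13 to 0.42), and neither difference passed the test (adjusted p = 0.677 and 0.405).

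Txnrd1 (ENSMUSG00000020250) had 526 and 613 CPM in BV+ NRF1 OE, 608 and 592 in BV+ Ctrl, 586, 576 and 601 in BV- NRF1 OE and 588 and 632 in BV- Ctrl. Srxn1 (ENSMUSG00000032802) had 44.0 and 52.7 CPM in BV+ NRF1 OE, 56.4 and 49.0 in BV+ Ctrl, 44.4, 51.4 and 54.7 in BV- NRF1 OE and 48.5 and 49.3 in BV- Ctrl. Both genes act on the thioredoxin and peroxiredoxin system, and their groups overlapped in both populations. The 95% intervals bound a change of Txnrd1 between -0.30 and 0.15 on the log2 scale in BV+ cells and between -0.26 and 0.15 in BV- cells. Those of Srxn1 were wider, from -0.44 to 0.19 in BV+ and from -0.25 to 0.32 in BV- cells.

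The superoxide dismutases turn superoxide into hydrogen peroxide. Sod1 (ENSMUSG00000022982) had 313 and 313 CPM in BV+ NRF1 OE, 291 and 244 in BV+ Ctrl, 347, 380 and 357 in BV- NRF1 OE and 300 and 321 in BV- Ctrl. Its NRF1 OE libraries were above the Ctrl libraries in both populations, but the differences of 0.23 in BV+ cells (95% interval -0.017 to 0.47, adjusted p = 0.177) and 0.22 in BV- cells (interval -0.0057 to 0.44, adjusted p = 0.136) on the log2 scale did not pass. Sod2 (ENSMUSG00000006818) had 113 and 126 CPM in BV+ NRF1 OE, 116 and 109 in BV+ Ctrl, 137, 131 and 129 in BV- NRF1 OE and 122 and 116 in BV- Ctrl. The groups overlapped in BV+ cells (log2 fold change 0.083, interval -0.16 to 0.32) and did not overlap in BV- cells (0.15, interval -0.064 to 0.37, adjusted p = 0.269). Across the 10 genes the libraries did not overlap for 6 genes in BV+ cells, 3 higher and 3 lower, beside 70.1% of all genes tested, and for 7 genes in BV- cells, 4 higher and 3 lower, beside 57.0%.

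Because the GC trend of the libraries moved with NRF1 OE, each gene's own GC content bears on its value. The transcripts of the 10 genes had 42.1% (Gclm) to 54.4% (Nfe2l1) GC. At the GC content and length of Gclc (47.7% GC), the fitted trend between NRF1 OE and Ctrl was -0.075 on the log2 scale in BV+ and -0.088 in BV- cells, and Gclc stayed lower with the offsets, at -0.47 (adjusted p = 0.0151) and -0.34 (adjusted p = 0.0524). At the GC content and length of Hmox1 (53.3% GC) the trend was 0.29 in BV+ and 0.35 in BV- cells. It was larger than the difference of Hmox1 in BV+ cells and as large in BV- cells. For Sod2 (42.2% GC) it was -0.30 and -0.52. With the offsets Sod2 had a log2 fold change of 0.38 in BV+ cells (adjusted p = 0.0963) and rose by 0.69 in BV- cells (adjusted p = 0.0339). The offsets took Sod2 at 5861 bases, while the deposited values put its counted length at 10008 bases. Sod1 had 0.33 (adjusted p = 0.0556) and 0.35 (adjusted p = 0.0541). With the offsets 1 of the 10 genes passed in each population, Gclc in BV+ cells, beside 11.9% of all genes, and Sod2 in BV- cells, beside 4.76%. NRF1 OE and the GC trend differ between the same libraries, so the part of NRF1 OE in that trend cannot be told apart from that of library preparation.

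**Figure D3:**
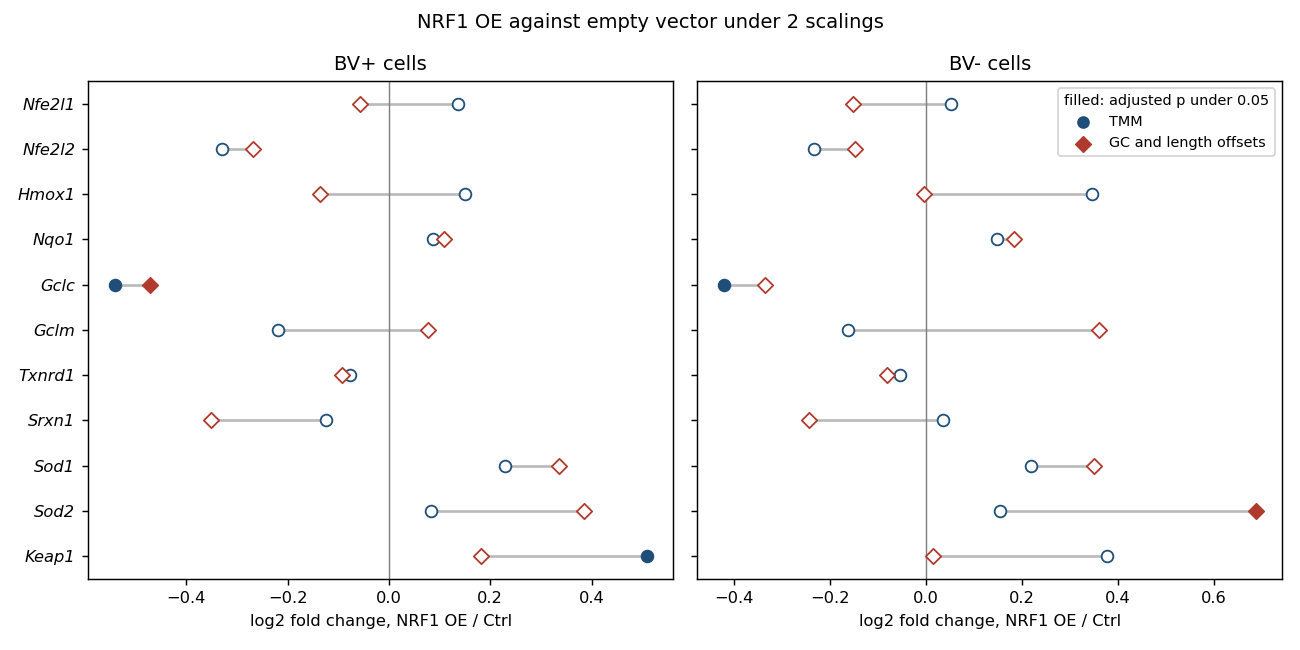
Log2 fold change of NRF1 OE over Ctrl (horizontal axis) for the 10 genes and Keap1 in BV+ and BV- cells, with TMM scaling (circles) and with offsets for GC content and transcript length (diamonds), filled at an adjusted p under 0.05. Gclc keeps its direction, from -0.54 to -0.47 and from -0.42 to -0.34, whereas Hmox1 in BV- cells moves from 0.35 to -0.0036 and Sod2 from 0.15 to 0.69.

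To compare the populations, BV+ cells were set against BV- cells within each arm. These comparisons use the same libraries as the comparisons of NRF1 OE with Ctrl. At Ctrl, edgeR called 0 of the 10 genes, beside 1.12% of all genes tested. DESeq2 also called 0, beside 1.79%, and 1 gene (Hmox1) passed at an unadjusted p under 0.05, beside 7.77%. Under NRF1 OE, 1 of the 10 genes (Hmox1) was lower in BV+ cells and 0 were higher, beside 13.8% of all genes (9.90% higher and 3.85% lower). The study's threshold was passed by 0 genes in either arm, beside 5.74% at Ctrl and 14.7% under NRF1 OE. The median log2 fold change of the 10 genes was -0.083 at Ctrl and -0.15 under NRF1 OE, beside -0.0098 and -0.0049 for all genes.

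Hmox1 in BV+ cells was 0.707 of its level in BV- cells under NRF1 OE, a log2 fold change of -0.50 (95% interval -0.75 to -0.25, adjusted p = 0.0127). At Ctrl it was 0.810 of the BV- level, a log2 fold change of -0.30 (interval -0.57 to -0.036, adjusted p = 0.529). In both arms, all BV+ libraries were below all BV- libraries. With offsets for GC content and length, Hmox1 stayed lower under NRF1 OE, at -0.37 (adjusted p = 0.00628). The call was lost in 4 of the 17 alternatives: without BV+ NRF1 OE replicate 1 (log2 fold change -0.45, adjusted p = 0.128), without BV- NRF1 OE replicate 3 (-0.47, adjusted p = 0.0658), in the fit of only the groups compared (adjusted p = 0.0723) and with the replicate block (adjusted p = 0.0750).

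Markers of other cells also moved between the populations. The endothelial genes Kdr and Cdh5 were higher in BV+ than in BV- cells at Ctrl (log2 fold change 1.75 and 2.09) and under NRF1 OE (3.73 and 4.12), whereas Pecam1 and Tek, also endothelial, were lower in every BV+ library at Ctrl without passing (log2 fold change -0.17 and -0.098), and the summed level of 5 endothelial markers was alike in the 4 groups, at 149 to 188 CPM. The summed level of 8 endoderm markers was 35.4 to 36.5 CPM in BV+ NRF1 OE, 79.2 to 92.8 in BV+ Ctrl, 68.0 to 117 in BV- NRF1 OE and 138 to 207 in BV- Ctrl. Markers of macrophages and erythroid cells had few counts. The 6 macrophage markers summed to at most 4.94 CPM and the 7 erythroid markers to at most 4.91 CPM. The macrophage markers Ptprc and Adgre1 were each at 0 in 3 of the 4 groups. Under NRF1 OE, 3 of 8 germ cell markers were called lower in BV+ cells (median log2 fold change -0.40). So were 3 of 6 pluripotency markers (median -0.30), beside 3.85% of all genes. None of either list was called higher. Of the 8 endoderm markers, 4 were called lower (median -1.01), also beside 3.85%. Of 4 mesoderm markers tested, 1 was called higher (median 1.13), beside 9.90% of all genes. At Ctrl no germ cell, pluripotency, mesoderm or endoderm marker was called, beside 1.12% of all genes. The endothelial marker Emcn had no count in BV- Ctrl. The part of any of these cells in the difference of Hmox1 was not tested.

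**Figure D4:**
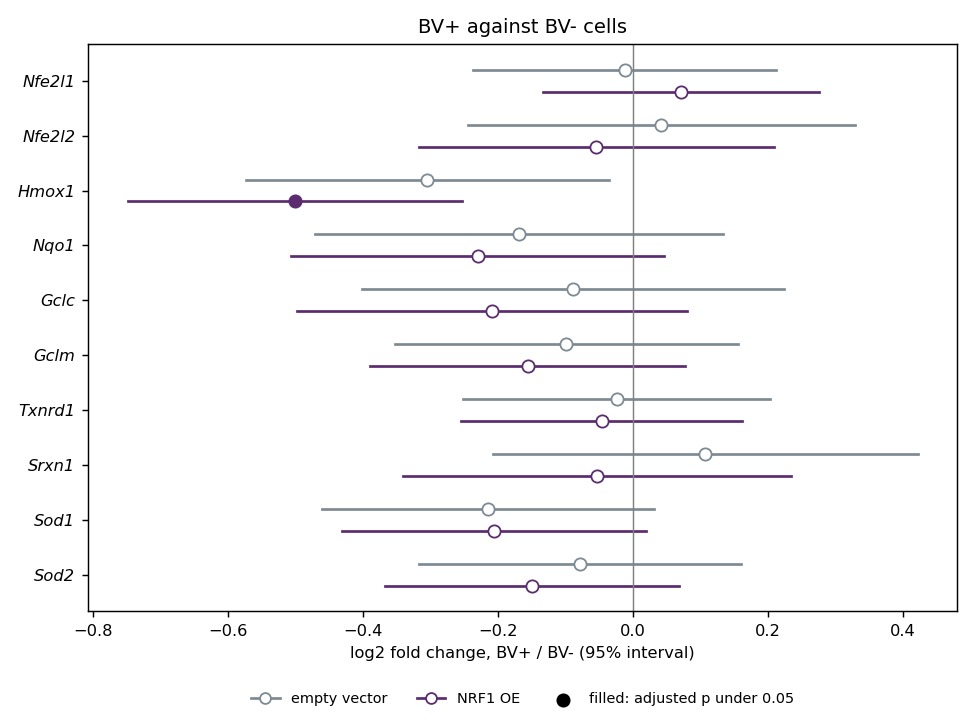
Log2 fold change of BV+ over BV- cells (horizontal axis) for each of the 10 genes at Ctrl and under NRF1 OE, with 95% intervals from edgeR, filled at an adjusted p under 0.05. Hmox1 lies furthest from 0, at -0.30 at Ctrl and at -0.50 under NRF1 OE, where it is the filled point.

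Sod1 was lower in every BV+ than in every BV- library in both arms, with log2 fold changes of -0.21 at Ctrl (95% interval -0.46 to 0.031) and -0.21 under NRF1 OE (interval -0.43 to 0.020), which did not pass the test (adjusted p = 0.733 and 0.220). Gclm and Nqo1 did not overlap at Ctrl, and Sod2 did not overlap under NRF1 OE, each lower in BV+ cells. In all, 4 of the 10 genes did not overlap at Ctrl, beside 48.0% of all genes, and 3 under NRF1 OE, beside 39.9%. With the offsets, Gclm (-0.47, adjusted p = 0.0268) and Sod2 (-0.47, adjusted p = 0.0235) passed the test under NRF1 OE as well as Hmox1, so 3 of the 10 genes passed, beside 21.8% of all genes. Nfe2l1 and Nfe2l2 overlapped between the populations in both arms, and their 95% intervals lay between -0.32 and 0.33 on the log2 scale.

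Whether NRF1 OE acted differently in BV+ and BV- cells was tested with the difference of its effect. For the 10 genes these differences lay between -0.20 (Hmox1, 95% interval -0.56 to 0.17) and 0.084 (Nfe2l1, interval -0.22 to 0.39) on the log2 scale. edgeR called 0 of the 10 genes and 0% of all genes tested, and DESeq2 called 0 of the 10 and 0.136% of all. At an unadjusted p under 0.05 there were 0 of the 10 genes and 5.51% of all, and the study's threshold was passed by 0 of the 10 genes and 4.48% of all. For Gclc the difference was -0.12 (interval -0.55 to 0.30), so its effects could differ by up to 0.55 in this direction at this number of libraries.

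Beyond the 10 genes, 61 other genes of the pathway were followed in 5 lists: regulators and partners, glutathione use and supply, thioredoxins and peroxiredoxins, enzymes of peroxide, heme, iron and quinones, and NADPH supply. Of these, 58 passed the filter on low counts, and Nfe2, Sod3 and Osgin1 did not. In BV+ cells 11 of the 58 rose with NRF1 OE and 0 fell, beside 6.24% and 1.78% of all genes, with a median log2 fold change of 0.26 beside 0.036 for all genes. In BV- cells 18 rose and 2 fell, beside 10.2% and 6.98% of all genes, with a median of 0.25 beside 0.0092. These counts rest on few libraries, and so do the calls over all genes. In BV+ cells 4 pathway genes passed without BV- NRF1 OE replicate 3, beside 665 of all 16877 genes tested. Without BV- NRF1 OE replicate 2 there were 23, beside 4957 of 16885. In BV- cells 0 passed without BV- NRF1 OE replicate 3, beside 35 of 16877. Without BV- NRF1 OE replicate 1 there were 33, beside 5847 of 16902. Leaving out a library of another group leaves a lone library there, and most of these fits gave fewer calls, for the pathway and over all genes. With the offsets for GC content and length, 12 passed in BV+ cells (11 higher and 1 lower), beside 11.9% of all genes. In BV- cells 7 passed (all higher), beside 4.76% of all genes. Over all genes tested, the offsets gave 1072 higher and 940 lower in BV+ cells, and 474 and 331 in BV- cells.

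**Figure D5:**
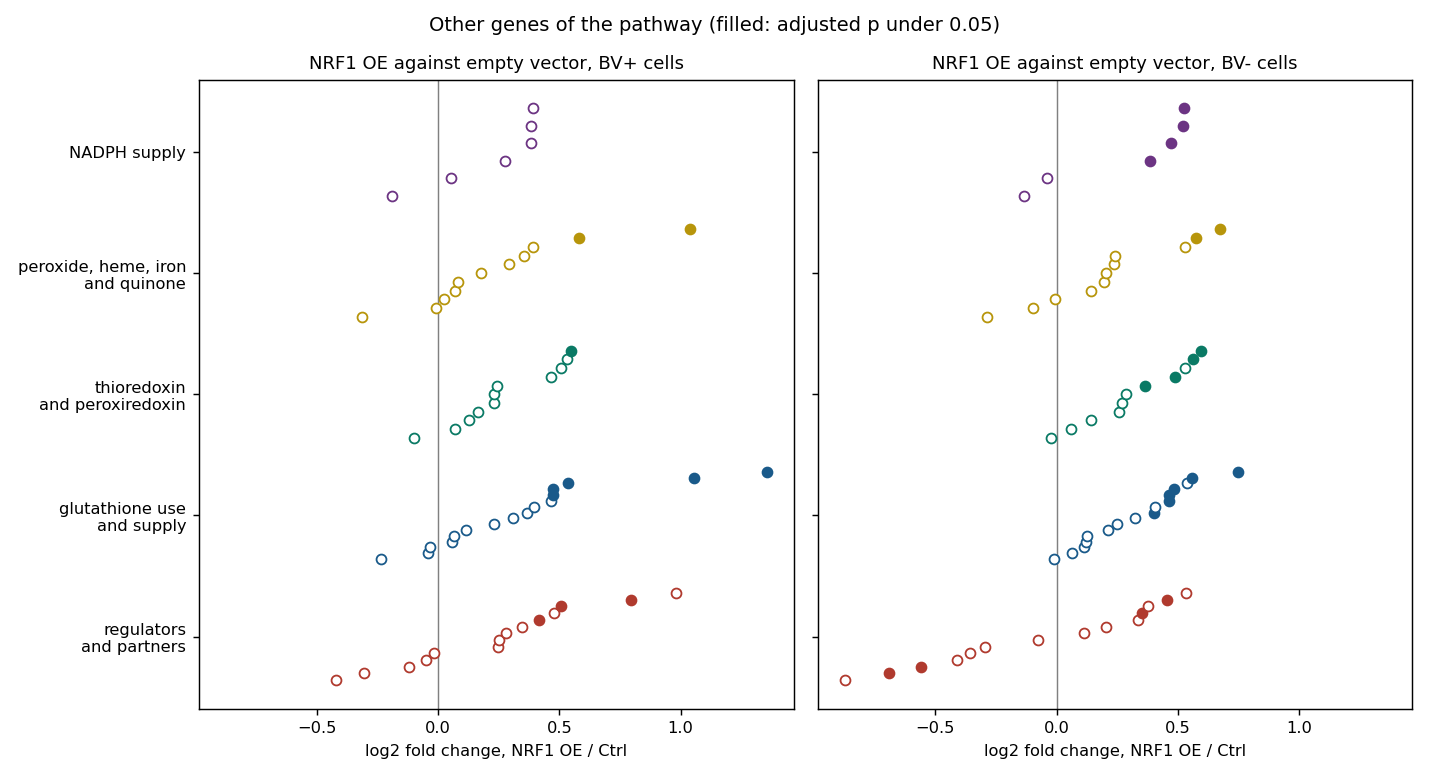
Log2 fold change of NRF1 OE over Ctrl (horizontal axis) of the 58 other pathway genes, 1 point a gene, by list and sorted within a list, in BV+ (left) and BV- cells (right), filled at an adjusted p under 0.05. In BV+ cells 11 points are filled, all above 0, and in BV- cells 18 filled points lie above 0 and 2 below, both of them regulators.

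Among the 14 regulators and partners tested, 3 rose in BV+ cells, beside 6.24% of all genes. In BV- cells 2 rose and 2 fell, beside 10.2% and 6.98% of all genes. Keap1, which marks NFE2L2 for degradation, had 33.8 and 31.7 CPM in BV+ NRF1 OE, 24.6 and 21.6 in BV+ Ctrl, 29.5, 32.5 and 30.7 in BV- NRF1 OE and 24.0 and 23.6 in BV- Ctrl. Every NRF1 OE library was above every Ctrl library. Keap1 rose 1.42-fold in BV+ cells (log2 fold change 0.51, 95% interval 0.23 to 0.79, adjusted p = 0.0397) and was 1.30-fold higher, without passing, in BV- cells (0.38, interval 0.12 to 0.64, adjusted p = 0.0502). Its transcript has 58.0% GC, above 90.7% of the genes tested, and with the offsets the difference was 0.18 (adjusted p = 0.284) and 0.015 (adjusted p = 0.946). The call in BV+ cells was also lost without any 1 of 6 libraries, namely BV+ NRF1 OE replicate 1, BV- NRF1 OE replicate 3 and the 4 Ctrl libraries, with log2 fold changes of 0.42 to 0.61. An exon of Keap1 overlaps Gm16754 on the other strand. Of the pathway genes named below, Sqstm1, Bach2, Gss, Prdx2, Prdx5, G6pdx and Ftl1 also overlap exons on the other strand, Prdx2 those of Junb.

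Sqstm1, whose protein takes KEAP1 to autophagy, rose 1.33-fold in BV+ cells (adjusted p = 0.0490) and 1.37-fold in BV- cells (adjusted p = 0.0317). With the offsets its log2 fold change fell from 0.41 to 0.15 (adjusted p = 0.155) in BV+ and from 0.45 to 0.14 (adjusted p = 0.182) in BV- cells, so neither rise passed. Bach2, a repressor that binds the same kind of element, rose 1.74-fold in BV+ cells, from 9.49 and 10.6 CPM to 16.6 and 18.3 CPM (adjusted p = 0.0463). In BV- cells Cul3, the scaffold of the ligase that KEAP1 serves, fell to 0.620 of Ctrl (adjusted p = 0.0386) and Bach1, the heme-sensing repressor of Hmox1, fell to 0.678 of Ctrl (adjusted p = 0.0442). Bach1 had 46.3 to 75.6 CPM in BV- NRF1 OE and 88.6 and 95.2 CPM in BV- Ctrl, with no overlap. In BV+ cells Bach1 was at 0.810 of Ctrl (95% interval of the log2 fold change -0.71 to 0.098, adjusted p = 0.259). With the offsets Cul3 was at -0.18 (adjusted p = 0.196) and Bach1 at -0.28 (adjusted p = 0.0892) on the log2 scale in BV- cells, and neither passed.

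Of the 16 genes of glutathione use and supply, 5 rose in BV+ and 6 in BV- cells, beside 6.24% and 10.2% of all genes. None of the 16 fell, beside 1.78% and 6.98% of all genes. Gss, which completes glutathione after glutamate-cysteine ligase, rose 1.39-fold in BV+ cells (adjusted p = 0.0396) and 1.40-fold in BV- cells (adjusted p = 0.0317), while Gclc fell. The largest rises in BV+ cells were those of Gpx8, a peroxidase of the endoplasmic reticulum, at 2.56-fold (11.8 and 17.1 CPM against 5.14 and 6.16 CPM, adjusted p = 0.0128), and Mgst1, a membrane-bound glutathione transferase, at 2.08-fold (adjusted p = 0.0244). Glrx5, a mitochondrial glutaredoxin, rose 1.45-fold in BV+ cells (adjusted p = 0.0336). In BV- cells the peroxidases Gpx4, which acts on lipid peroxides, and Gpx1 rose 1.68-fold and 1.47-fold (both at an adjusted p of 0.0317), but with the offsets their log2 fold changes were 0.20 (adjusted p = 0.113) and 0.044 (adjusted p = 0.765). The rises of Gss passed with the offsets in both populations, and those of Gpx8, Mgst1 and Glrx5 in BV+ cells. Slc7a11, the cystine carrier and a well-known NFE2L2 target, had 5.87 to 12.7 CPM in all libraries, with a log2 fold change of 0.37 in BV+ cells (95% interval -0.095 to 0.83, adjusted p = 0.238) and 0.21 in BV- cells (interval -0.20 to 0.63, adjusted p = 0.427).

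Of the 11 thioredoxin and peroxiredoxin genes, 1 rose in BV+ and 4 in BV- cells, beside 6.24% and 10.2% of all genes. Prdx4, the peroxiredoxin of the endoplasmic reticulum, rose 1.46-fold in BV+ cells (adjusted p = 0.0358) and 1.40-fold in BV- cells (adjusted p = 0.0341). Prdx2 and Prdx5 rose 1.51-fold (adjusted p = 0.0334) and 1.48-fold (adjusted p = 0.0358) in BV- cells. NADPH supply feeds glutathione and thioredoxin reductases. Of its 6 genes, edgeR and DESeq2 called 0 in BV+ cells, beside 8.02% and 12.5% of all genes. In edgeR, 4 passed there at an unadjusted p under 0.05, beside 32.5% of all genes. In BV- cells edgeR called 4, all higher, beside 10.2% of all genes. These included the pentose phosphate enzymes Pgd (1.44-fold, adjusted p = 0.0317), Tkt (1.43-fold, adjusted p = 0.0317) and G6pdx (1.39-fold, adjusted p = 0.0430). With the offsets Pgd and Prdx4 passed in both populations, and Tkt, G6pdx, Prdx2 and Prdx5 passed in neither.

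Of the 11 genes of peroxide, heme, iron and quinones, 2 rose in BV+ cells, Blvrb and Ftl1, and 2 in BV- cells, Blvrb and Ccs. Over all genes tested, 6.24% rose in BV+ and 10.2% in BV- cells. Blvrb, which encodes biliverdin reductase B, rose 1.50-fold in BV+ cells (adjusted p = 0.0392) and 1.60-fold in BV- cells (adjusted p = 0.0317). Ccs, which loads copper onto SOD1, rose 1.49-fold in BV- cells (adjusted p = 0.0317) and was 1.28-fold higher, without passing, in BV+ cells (adjusted p = 0.109). With the offsets neither gene passed: Blvrb was at 0.27 in BV+ and 0.30 in BV- cells on the log2 scale (adjusted p = 0.122 and 0.0879), and Ccs was at 0.079 in BV- cells (adjusted p = 0.656). Catalase (Cat), which breaks down hydrogen peroxide, had 154 to 188 CPM in all libraries, with a log2 fold change of -0.0093 in BV+ cells (95% interval -0.26 to 0.24) and -0.098 in BV- cells (interval -0.33 to 0.13).

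Ftl1, the ferritin light chain, differed most between the populations. It had 498 and 300 CPM in BV+ NRF1 OE, 188 and 201 in BV+ Ctrl, 42.1, 66.3 and 50.1 in BV- NRF1 OE and 42.2 and 53.3 in BV- Ctrl. All BV+ libraries were above all BV- libraries, 4.06-fold at Ctrl (adjusted p = 0.00239) and 7.57-fold under NRF1 OE (adjusted p = 8.9e-06). In BV+ cells Ftl1 rose 2.06-fold with NRF1 OE (log2 fold change 1.04, 95% interval 0.52 to 1.56, adjusted p = 0.0323), and without BV+ NRF1 OE replicate 1, its highest library, the log2 fold change was 0.63 and did not pass, nor did it without BV+ Ctrl replicate 1 (0.99) or 2 (1.09). At Ctrl, the difference between the populations did not pass without BV- Ctrl replicate 1 (1.86, adjusted p = 0.0676). In BV- cells it was 0.14 (interval -0.35 to 0.63). With the offsets, at 58.1% GC, it was 0.54 in BV+ (adjusted p = 0.0259) and -0.40 in BV- cells (adjusted p = 0.0806). The difference between these effects was 0.90 (interval 0.19 to 1.61, unadjusted p = 0.0176, adjusted p = 0.737). Near-identical copies of Ftl1 were counted too, and Ftl2-ps had 564 to 570 CPM in BV+ NRF1 OE, 556 to 585 in BV+ Ctrl, 759 to 956 in BV- NRF1 OE and 603 to 618 in BV- Ctrl. Ftl2-ps was thus lower in BV+ cells in both arms, and at Ctrl so was Ftl1-ps2, at 33.0 to 48.7 against 53.9 to 66.2 CPM. Ftl1-ps1 was higher in BV+ cells in both arms. The exons of Ftl1 also overlap Gm22133 on the same strand. Reads could be split between these copies, so the level of Ftl1 and its difference between the populations are uncertain.

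Between the populations, 1 of the 58 pathway genes passed at Ctrl, Ftl1, beside 1.12% of all genes, and 10 passed under NRF1 OE, 4 higher and 6 lower in BV+ cells, beside 9.90% and 3.85% of all genes. The genes higher in BV+ cells were Ftl1, Gpx8 (4.20-fold, adjusted p = 4.8e-05), Bach2 (3.88-fold, adjusted p = 7.85e-05) and Gsk3b (1.48-fold, adjusted p = 0.0130), a kinase that marks NFE2L2 for degradation without KEAP1. Lower in BV+ cells were Gpx1, Gpx4, Gsta4, Gstm1, Txnrd3 and Fth1, the ferritin heavy chain, at 0.711 (Gstm1) to 0.796 (Gsta4) of the BV- level. The median of the 58 genes was -0.090 at Ctrl and -0.13 under NRF1 OE. Under NRF1 OE 4 passed without BV- NRF1 OE replicate 3, beside 1514 of all 16877 genes tested. Without BV- NRF1 OE replicate 1 there were 21, beside 3182 of 16902. Fewer passed in the fits that left a lone library in a group, and fewer of all genes passed there too. Gpx8 and Bach2 were higher in BV+ cells in all 17 alternatives, as was Ftl1. None of these alternatives changed how reads were assigned between Ftl1 and its copies.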

How the data were processed

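RNA-seq libraries of sorted BV+ and BV- cells, 9 in 4 groups, were analysed from the tables that the authors deposited. Per the study's methods and the submitters' processing notes, reads went through Cutadapt 1.9.1 and FastQC 0.10.1, were aligned by HISAT2 2.0.1 to GRCm39 and were assigned to genes by HTSeq 0.6.1. The deposited raw counts, which are not normalized, were used for all tests. The FPKM that the authors computed from these counts were used only to compare levels between genes. Whether the counting used strand is not given in the sources used here. Every line of the tables named a gene.

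The main test was the two-sided quasi-likelihood test of edgeR 4.0.16 under R 4.3.3, in 1 fit of all 9 libraries with a term for each group, TMM factors (0.969 to 1.03) and the filterByExpr filter, which left 16903 of the 33142 genes with a count. P-values were adjusted by Benjamini-Hochberg over all genes tested, and an adjusted p under 0.05 is called passed, risen or fallen. CPM were scaled by TMM. Intervals are 95% intervals of edgeR log2 fold changes. The libraries of a group differed by more than sampling noise (chi-square per degree of freedom 2.99 to 34.7). Exon overlaps came from a GRCm38 annotation, as did GC content and length, which were those of a gene's longest transcript. The offsets were fitted as splines per library, with GC content and length known for 16662 of the genes tested. The procedure was also run on simulated counts in which 200 genes were changed by 1.5 on the log2 scale, and 193 to 200 of them were recovered. These counts held no GC trend, and the calls of the 10 genes were smaller changes. The run therefore does not bear on calls of that size or on the GC trend.

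Alternatives were DESeq2 1.42.0, other scaling factors, no filter, a fit of only the groups compared, GC and length offsets, a block for the replicate number, and fits that left out 1 library. A crossed pairing of replicate numbers was added after seeing the data. The text names all 10 genes, Keap1, Bach1, Slc7a11 and Cat, Nrf1 as a check of the labels, markers of other cells, and up to 3 genes with the largest change that passed in each pathway list and comparison. Gsta4 and the copies of Ftl1 were named after their values were seen. The 6 pluripotency markers summed to 2123 to 3022 CPM and the 6 mesoderm markers to 6.34 to 11.7 CPM. The genes and lists were chosen with earlier results of these data known. The plots were made in matplotlib 3.10.9 under Python 3.11.15.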

Additional observations from a re-analysis of the deposited data

How the results depend on the processing

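For the 10 genes, 764 of 840 values under an alternative kept their direction and their side of the threshold, 19 lost a call, 8 gained a call and 49 turned sign. Of the 10 genes, 1 passed for NRF1 OE in BV+ cells, but 2 in a fit of only the groups compared and 0 to 2 with 1 library left out. In BV- cells 1 passed, but 2 with DESeq2, 0 in a fit of only the groups compared and 0 to 2 with 1 library left out. Between the populations 0 passed at Ctrl (1 in a fit of only the groups compared), and 1 passed under NRF1 OE, but 0 in a fit of only the groups compared, 3 with GC and length offsets and 0 to 1 with 1 library left out. The number of pathway genes that passed in BV+ cells was 11, but 6 with upper-quartile factors, 5 with library size alone, 20 in a fit of only the groups compared and 0 to 23 with 1 library left out. In BV- cells it was 20, but 0 in a fit of only the groups compared, 7 with the offsets and 0 to 33 with 1 library left out. Between the populations at Ctrl it was 1, but 2 with upper-quartile factors, library size alone, no filter, DESeq2 or the offsets, 5 in a fit of only the groups compared and 0 to 2 with 1 library left out, and under NRF1 OE it was 10, but 3 in a fit of only the groups compared and 3 to 21 with 1 library left out. For the difference between the populations it was 0, and 1 without the filter. Over all genes tested, the offsets moved the calls for NRF1 OE in BV+ cells from 1054 higher and 301 lower to 1072 and 940, and those between the populations under NRF1 OE from 1674 higher and 651 lower to 1980 and 1707. The fit of only BV+ cells called 4371 of 16286 genes, and the fit of only BV- cells called 0 of 15840. Between the populations, the fit of only the groups compared called 890 of 16118 genes at Ctrl and 1260 of 16148 under NRF1 OE. Calls over all genes tested moved with the library left out too. Without BV- NRF1 OE replicate 3 they were 665 of 16877 for NRF1 OE in BV+ cells and 35 in BV- cells. Without BV- NRF1 OE replicate 2 they were 4957 of 16885 and 2460, and without BV- NRF1 OE replicate 1 they were 2370 of 16902 and 5847. The cause of these changes was not tested.

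The labels do not say what a shared replicate number marks. The deviations of same-numbered libraries correlated at -0.581 to 0.547, with 0.517 and 0.547 between NRF1 OE and Ctrl in BV- cells. With the replicate block, 0 of the 10 genes passed in each comparison. Pathway genes that passed were 0 for NRF1 OE in BV+ and in BV- cells, 1 between the populations at Ctrl and 3 under NRF1 OE. Of all 16903 genes tested, 3 passed for NRF1 OE in BV+ cells and 0 in BV- cells with the block. Between the populations 121 passed at Ctrl and 1064 under NRF1 OE. The crossed pairing of the Ctrl libraries gave 0 of the 10 genes and 2 pathway genes, beside 347 of all 16903 genes tested. Srxn1 turned sign with the block, to -0.032 for NRF1 OE in BV- cells and to 0.013 between the populations under NRF1 OE.

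No called value of the 10 genes turned sign, but values that had not passed did, including Hmox1 in BV- cells, which DESeq2 called. With the offsets, NRF1 OE in BV+ cells gave -0.058 for Nfe2l1, -0.14 for Hmox1 and 0.076 for Gclm, and in BV- cells -0.15, -0.0036 and 0.36 for the same genes and -0.24 for Srxn1. Srxn1 was 0.019 between the populations under NRF1 OE, and the difference of effects was -0.016 for Sod1 and -0.16 for Slc7a11. With library size alone Srxn1 was -0.0019 in BV- cells, and Nfe2l1 and Txnrd1 were 0.013 and 0.0014 between the populations at Ctrl. Without the filter Nfe2l1 was 0.0055 at Ctrl and the difference for Sod1 was -0.0099. With upper-quartile factors Cat was -0.017 between the populations under NRF1 OE and the difference for Sod1 was -0.039.

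With 1 library left out, NRF1 OE in BV+ cells gave -0.087 to 0.25 for Nqo1, -0.19 to 0.033 for Txnrd1, -0.26 to 0.0037 for Srxn1 and -0.16 to 0.13 for Cat, and in BV- cells -0.033 to 0.12 for Srxn1. Between the populations at Ctrl the ranges were -0.063 to 0.037 for Nfe2l1, -0.021 to 0.10 for Nfe2l2, -0.077 to 0.0055 for Txnrd1 and -0.14 to 0.048 for Keap1. Under NRF1 OE they were -0.20 to 0.079 for Nfe2l2, -0.16 to 0.060 for Txnrd1, -0.19 to 0.072 for Srxn1 and -0.13 to 0.16 for Cat. For the difference of effects they were -0.24 to 0.036 for Nfe2l2, -0.24 to 0.096 for Nqo1, -0.32 to 0.054 for Gclc, -0.19 to 0.067 for Gclm, -0.14 to 0.084 for Txnrd1, -0.11 to 0.14 for Sod1, -0.15 to 0.026 for Sod2, -0.13 to 0.49 for Slc7a11 and -0.064 to 0.23 for Cat. With 2 or 3 libraries a group, where leaving out 1 can leave a lone library that is assumed to vary like the others, the lowest count of the 10 genes was 698. Which of depth, the number of libraries and the GC trend limits the calls was not tested.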
